A study of Mus musculus with 6 samples.

Results

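The genes that carry Wnt signalling, from the secreted ligands to the nuclear effectors, were followed in endothelial cells (ECs) of the coronary vessels of the E15.5 mouse heart that had or had lost *Wt1*. They were taken by symbol from the deposited count table and comprised 49 of its 55416 genes: 19 Wnt ligands, 10 Frizzled receptors, 2 LRP co-receptors, the agonist *Rspo3*, 5 secreted Wnt binders, 3 destruction complex genes, *Ctnnb1*, 4 TCF/LEF factors and 4 feedback inhibitors. All 49 had a position in the GENCODE vM39 annotation of GRCm39, on 16 chromosomes, and 0 of them lay on chromosome 2, which bears *Wt1*. The rule named genes and used no measured value, although the list was drawn up with earlier results of these data known.

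The study asked what the transcription factor WT1 does in ECs while the coronary vessels form. *ControlΔEC* embryos were Pdgfb-CreERT2/+; Wt1+/+; R26-mTmG/+ and *Wt1KOΔEC* embryos were Pdgfb-CreERT2/+; Wt1loxP/loxP; R26-mTmG/+, the driver being the line that the study's methods call *Pdgfb*-iCreERT2, so that both genotypes carried the inducible Cre and the reporter that turns recombined cells green. All dams received tamoxifen at 75 mg/kg by gavage between E11.5 and E13.5, and the mGFP+ cells of the E15.5 ventricles were sorted by FACS for bulk RNA-Seq, with 3 libraries per genotype labelled as biological replicates. The *Pdgfb* promoter drives the Cre in coronary ECs, so that *Wt1* was removed there and not in every *Wt1*-expressing cell of the heart. The libraries differ in the letters of their identifiers between the genotypes and no source names a batch, so that a difference in handling that followed genotype cannot be told apart from genotype.

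Wnt ligands are lipid-modified secreted proteins that bind Frizzled receptors together with the co-receptors LRP5 or LRP6. This stops the destruction complex of APC, AXIN and kinases from marking β-catenin for degradation, and β-catenin then enters the nucleus and switches on target genes together with TCF/LEF factors. In ECs the pathway is best known from the brain and retina, where WNT7A, WNT7B and Norrin act through Frizzled receptors, Norrin through FZD4, to form vessels with a blood-tissue barrier.

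The promoters of 5 members are shown, those of *Wif1* and *Fzd1*, the members with the smallest p-values, those of *Fzd7* and *Lrp6*, whose genotypes did not overlap and which hold a TCF/LEF motif, and that of *Fzd4*, the leading receptor of these cells. Each is the 250 bases before the annotated start of the gene's canonical transcript on GRCm39, read 5′ to 3′ on the strand of the gene, with any motif found in capitals.
Wif1, chr10:120869615-120869864, plus strand: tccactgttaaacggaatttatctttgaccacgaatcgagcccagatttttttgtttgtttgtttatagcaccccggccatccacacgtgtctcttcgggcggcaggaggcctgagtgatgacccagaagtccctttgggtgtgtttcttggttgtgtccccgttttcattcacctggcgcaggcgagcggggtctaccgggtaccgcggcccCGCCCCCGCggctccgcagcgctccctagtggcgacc
Fzd1, chr5:4808036-4808285, minus strand: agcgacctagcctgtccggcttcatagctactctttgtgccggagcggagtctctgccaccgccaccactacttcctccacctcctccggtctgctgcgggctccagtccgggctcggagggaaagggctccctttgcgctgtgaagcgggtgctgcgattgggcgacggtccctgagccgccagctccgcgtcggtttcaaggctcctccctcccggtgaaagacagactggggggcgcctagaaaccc
Fzd7, chr1:59521019-59521268, plus strand: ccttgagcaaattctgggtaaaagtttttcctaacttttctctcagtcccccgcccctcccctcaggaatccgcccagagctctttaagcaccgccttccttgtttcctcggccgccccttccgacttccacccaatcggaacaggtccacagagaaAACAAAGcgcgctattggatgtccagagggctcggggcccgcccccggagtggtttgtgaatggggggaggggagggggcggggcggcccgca
Lrp6, chr6:134544213-134544462, minus strand: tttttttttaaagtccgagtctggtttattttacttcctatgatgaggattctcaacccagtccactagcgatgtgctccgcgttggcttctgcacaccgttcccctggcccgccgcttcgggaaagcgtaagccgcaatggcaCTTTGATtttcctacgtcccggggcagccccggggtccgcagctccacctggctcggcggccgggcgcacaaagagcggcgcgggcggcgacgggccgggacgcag
Fzd4, chr7:89053313-89053562, plus strand: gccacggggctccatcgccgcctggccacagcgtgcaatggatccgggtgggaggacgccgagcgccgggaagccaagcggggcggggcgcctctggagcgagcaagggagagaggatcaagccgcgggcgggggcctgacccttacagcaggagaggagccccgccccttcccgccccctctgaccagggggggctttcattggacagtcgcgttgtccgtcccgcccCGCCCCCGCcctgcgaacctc

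The motifs searched on both strands were CTTTGAT and CTTTGTT for TCF/LEF factors, and GCGGGGGCG and GCGTGGGNG for the zinc finger site that WT1 shares with EGR factors; the sequences of the TCF/LEF pair and of the WT1/EGR pair do not overlap each other. A TCF/LEF motif stood in 4 of the 49 member promoters (8.16%), those of *Fzd7*, *Lrp6*, *Nkd1* and *Wnt8a*, against 7.60% of the promoters of 21770 genes. A WT1/EGR motif stood in 7 of 49 (14.3%), those of *Fzd4*, *Wif1*, *Tcf7l2*, *Axin1*, *Wnt1*, *Wnt3a* and *Wnt7a*, against 4.05% of all promoters. Members also had promoters richer in G and C, with a median of 64.0% against 53.2% over all promoters, and this motif consists of those letters almost throughout. Counted from its first base to the start, the motif lay 37 bases away in *Wif1*, 21 in *Fzd4*, 93 in *Fzd7* and 106 in *Lrp6*, while the *Fzd1* window held neither. A match is a string of letters, and binding was not measured in these libraries.

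The libraries held 26037324 to 44779020 counts, and *Wt1* was lower in *Wt1KOΔEC* (log2 fold change -2.91 ± 0.22, SE; adjusted p = 0.00319 in edgeR's quasi-likelihood test with Benjamini-Hochberg adjustment, used throughout), with 109.5 to 149 CPM (counts relative to the TMM-scaled library total) in *ControlΔEC* and 13.99 to 21.3 CPM in *Wt1KOΔEC*. Of 16296 genes tested, 12 passed as differentially expressed genes (DEGs), which needed an adjusted p under 0.05 and a log2 fold change beyond 0.58 in either direction. The study itself used DESeq2 with the same fold change limit. DESeq2, run here as an alternative on the table without the count filter, called 767 of the 15886 genes it adjusted. The number of DEGs thus differed strongly between these runs, which differ in the tool and in the gene filter. The 8 endothelial markers summed to 4391 to 5376 CPM and the genotypes overlapped, with 1 of the 8 higher at an unadjusted p under 0.05. Another 6 lists, of markers of other cells, also held members apart at that p. The 7 fibroblast markers summed to 584 to 868 CPM in *ControlΔEC* and 1157 to 1368 CPM in *Wt1KOΔEC*, the 6 epicardial markers to 4.71 to 10.99 and 13.8 to 41.7 CPM, the 6 endocardial markers to 308 to 406 and 502 to 587 CPM, and the 6 mural cell markers to 432 to 575 and 282 to 343 CPM. The 5 macrophage markers summed to 182 to 551 and 111 to 167 CPM, with the highest sum in *ControlΔEC* replicate 2, and none of these markers was at 0 in every library. Higher at that p were 4 of 7 fibroblast, 2 of 6 epicardial and 5 of 6 endocardial markers, and lower were 4 of 6 mural cell and 4 of 5 macrophage markers, against 5.96% of all genes tested higher and 7.12% lower. Of the 5 erythroid markers 1 was higher and 2 were lower, none of the cardiomyocyte markers passed, and the sums of both lists overlapped. Their part in the results for Wnt genes was not tested, and in bulk samples fewer cells of a type and less RNA per cell cannot be told apart. Some of these markers also have a reading within ECs. The study names *Col1a1*, *Col3a1* and *Dcn* of the fibroblast list as venous markers, although it counts *Col1a1* among fibroblast genes too. It names *Rgs5* and *Kcnj8* of the mural list as arterial genes.

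*Ctnnb1* and *Fzd4* had the highest levels of the members in coronary ECs. The summed co-receptors and destruction complex overlapped with the summed ligands, while the summed TCF/LEF factors lay above them. Levels of different genes are compared as CPM per kb of exonic length, over the 3 *ControlΔEC* libraries. *Ctnnb1*, which encodes β-catenin, stood at 103 ± 7.11 CPM per kb (SD, n = 3), rank 243 of the 16238 tested genes with a length. *Fzd4*, the receptor for Norrin and several Wnt ligands, followed at 31.3 ± 3.89 CPM per kb, rank 842. The *ControlΔEC* ranges of *Ctnnb1* and *Fzd4* did not overlap, nor did those of *Fzd4* and *Fzd6*, which was next at 6.30 ± 0.877 CPM per kb. Below it came *Sfrp2* at 4.90 ± 2.98, *Fzd1* at 3.62 ± 1.69, *Tcf7l2* at 3.23 ± 1.22, *Apc* at 2.73 ± 0.372 and *Lrp5* at 1.93 ± 1.32 CPM per kb, and from *Fzd6* downwards each gene's range overlapped that of its neighbour in the order. The ligand with the highest mean was *Wnt9b*, at 1.11 ± 1.01 CPM per kb, but it ran from 0 to 1.97 CPM per kb over the 3 libraries, against 27.2 to 34.96 CPM per kb for *Fzd4*. Summed per kb, the ligands came to 3.30 ± 0.13, the LRP co-receptors to 3.55 ± 1.31, the destruction complex to 3.78 ± 0.44 and the TCF/LEF factors to 4.73 ± 1.42 CPM per kb. The TCF/LEF sums, at 3.47 to 6.27 CPM per kb, lay above the ligand sums, at 3.17 to 3.42 CPM per kb. These sums set 19 ligands against fewer genes in each other family. As single genes, *Tcf7l2* and *Apc*, at no less than 2.22 and 2.30 CPM per kb, lay above the highest *Wnt9b* value of 1.97.

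**Figure D1:**
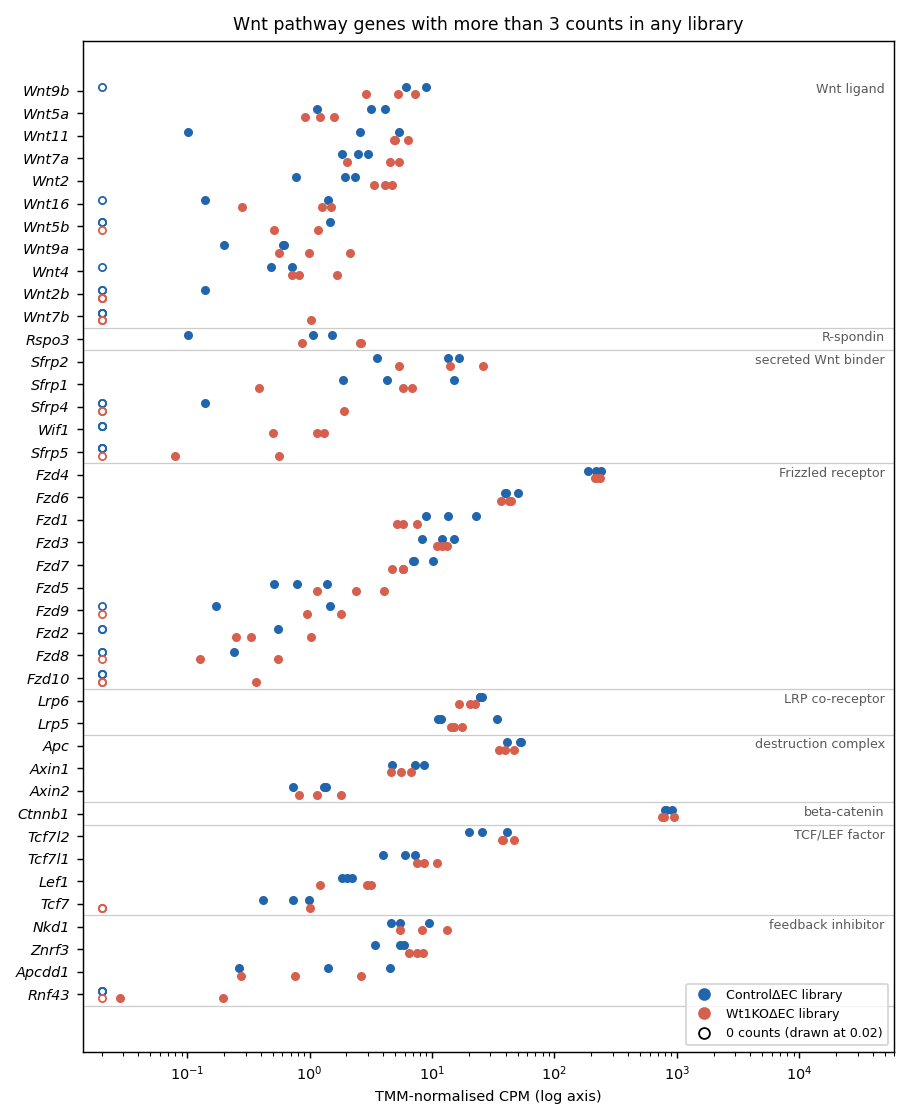
TMM-normalised CPM on a log axis for the members with more than 3 counts in any library, grouped by role, with 1 point per library (blue *ControlΔEC*, red *Wt1KOΔEC*, open points 0 counts). *Fzd4* (187 to 239.5 CPM) and *Ctnnb1* (762 to 945 CPM) hold tight positions on the right, whereas the ligands lie under 10 CPM with scattered points.

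Of the 49 members, 34 reached 10 counts in at least 2 libraries and were tested, and 22 did so in all 6 libraries. Another 7 members had 0 counts in every library (*Wnt3*, *Wnt3a*, *Wnt6*, *Wnt8a*, *Wnt8b*, *Wnt10a* and *Wnt10b*), which at these depths allows up to 0.0608 to 0.119 CPM per library, the level of 3 counts. The other 8 were detected too rarely to be tested. *Wnt7b* was found in *Wt1KOΔEC* replicate 1 alone (40 counts) and *Fzd10* in *Wt1KOΔEC* replicate 2 alone (13 counts). *Sfrp4* had 4 counts in *ControlΔEC* replicate 3 and 74 in *Wt1KOΔEC* replicate 1, *Sfrp5* had 22 and 2 in *Wt1KOΔEC* replicates 1 and 3, *Rnf43* had 1 and 5 in *Wt1KOΔEC* replicates 2 and 3, and *Wnt1*, *Wnt2b* and *Fzd8* stayed at or under 14 counts. 

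No member was a DEG by edgeR (0 of 34, where 0.0736% of all genes tested were), and the adjusted p-values ran from 0.209 to 0.996. At an unadjusted p under 0.05, 2 members differed (5.88% of 34, against 13.1% of all genes tested), with *Wif1* higher (5.96% of all genes) and *Fzd1* lower (7.12% of all genes). DESeq2 called both as DEGs (2 of 34, against 4.83% of the 15886 genes it adjusted). It had 3 members at an unadjusted p under 0.05, these 2 and *Wnt2* (16.8% of all genes with a p there), and limma-voom had 5 (13.5% of all genes). *Wif1* entered the test only through *Wt1KOΔEC*, where it is high, so that its place in these counts is a description. The fitted difference was above 0 for 22 members and below 0 for 12, with a median log2 fold change of 0.23, against -0.027 over all genes tested. The share of all genes with a fit above 0 was not counted. The median was 0.031 for the 22 members with at least 10 counts in every library. With a library left out it ran from 0.0075 (without *Wt1KOΔEC* replicate 2) to 0.43 (without *Wt1KOΔEC* replicate 1). The genotypes did not overlap for *Wif1*, *Wnt2*, *Tcf7l1* and *Znrf3*, all higher in *Wt1KOΔEC* (4 of 34, with 10.4% of all genes tested in that position), or for *Fzd1*, *Fzd7* and *Lrp6*, all lower (3 of 34, with 8.95% of all genes). The shares of members without overlap lie close to those of all genes.

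**Figure D2:**
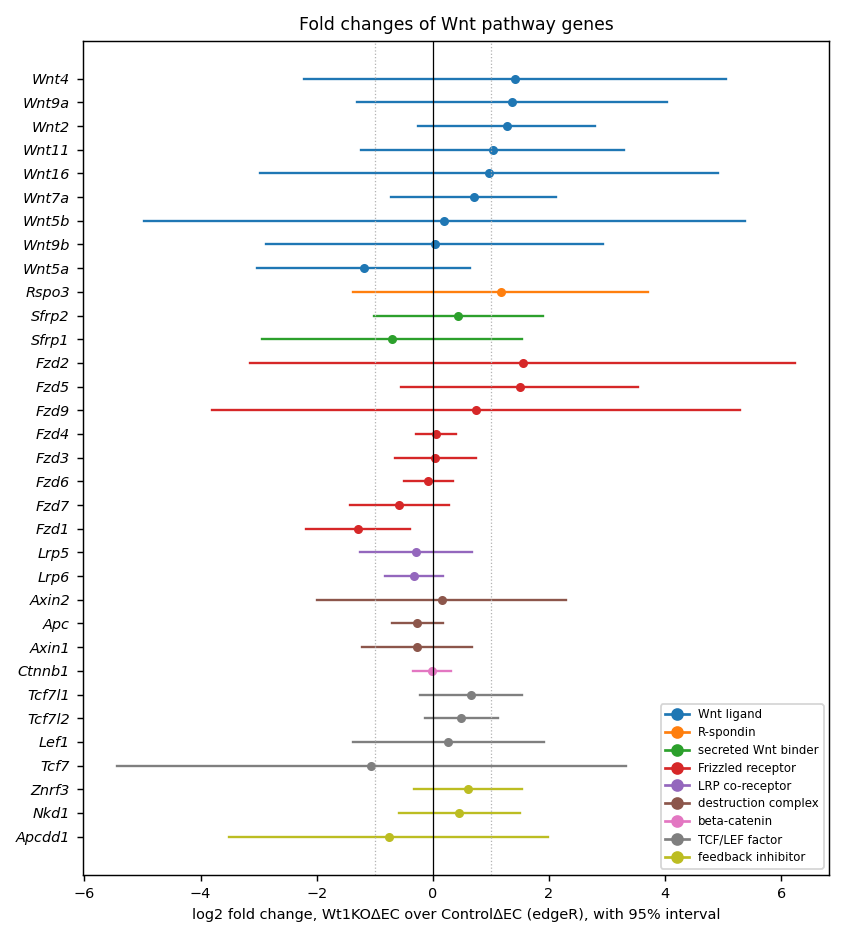
Fitted log2 fold change of *Wt1KOΔEC* over *ControlΔEC* with its 95% interval for 33 of the 34 members tested, coloured by role; *Wif1*, at 0 in every *ControlΔEC* library, has no bounded estimate and is not drawn. The interval of *Fzd1* (-2.19 to -0.40) lies below 0, all others drawn cross 0, and those of *Ctnnb1*, *Fzd4* and *Fzd6* are the narrowest.

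Among the secreted proteins that bind Wnt ligands, *Wif1*, which encodes WNT inhibitory factor 1 (chromosome 10, 120869865 to 120936555), had counts in *Wt1KOΔEC* libraries only. It had 0 counts in all 3 *ControlΔEC* libraries, and 51, 18 and 29 counts, or 1.305, 0.505 and 1.15 CPM, in *Wt1KOΔEC* replicates 1, 2 and 3. The difference was at least 12.8-fold, taking 3 counts per library as the floor in *ControlΔEC* (edgeR adjusted p = 0.209; DESeq2 adjusted p = 0.00297). As *Wif1* passed the filter on low counts through *Wt1KOΔEC* alone, these p-values describe the counts and add no support to them. Every *Wt1KOΔEC* library thus held *Wif1* above its floor, at a mean of 0.393 ± 0.169 CPM per kb. The epicardial markers were at 41.7, 13.8 and 27.1 CPM in the same 3 libraries and at 10.99, 5.82 and 4.71 CPM in *ControlΔEC* replicates 1, 2 and 3; the fibroblast markers were at 1368, 1157 and 1186 CPM and at 868, 584 and 761 CPM. Both lists and *Wif1* were highest in *Wt1KOΔEC* replicate 1 and lowest in replicate 2. The endocardial markers, also higher in *Wt1KOΔEC*, were lowest there in replicate 1, at 502, 587 and 581 CPM. The part of these lists in the *Wif1* result was not tested. The study counts *Wif1* itself, and *Dkk3*, among the markers of cardiac fibroblasts.

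The SFRP decoys, which carry a Frizzled-like domain, varied within genotypes by more than they did between them. *Sfrp2* was at 3.57, 16.7 and 13.5 CPM in *ControlΔEC* and at 5.35, 26.3 and 14.1 CPM in *Wt1KOΔEC* (log2 fold change 0.44 ± 0.64, adjusted p = 0.860), and the fitted difference became -0.22 without *Wt1KOΔEC* replicate 2. *Sfrp1* ranged from 0.384 to 6.84 CPM in *Wt1KOΔEC* and from 1.88 to 15.1 CPM in *ControlΔEC*. Its highest value was that of *ControlΔEC* replicate 2, a single library, which also held the highest macrophage and erythroid marker sums. Their part in the *Sfrp1* values was not tested.

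*Fzd1* (chromosome 5, 4803839 to 4808035), a receptor that can signal through β-catenin, was lower in *Wt1KOΔEC*. Its level was 22.9, 13.6 and 9.01 CPM in *ControlΔEC* replicates 1, 2 and 3, and 7.52, 5.22 and 5.81 CPM in *Wt1KOΔEC* replicates 1, 2 and 3. All *ControlΔEC* libraries lay above all *Wt1KOΔEC* libraries, although *ControlΔEC* replicate 3 stood much nearer to *Wt1KOΔEC* than replicate 1 did. The fold was 0.407 (95% interval 0.219 to 0.757; log2 fold change -1.30 ± 0.40; edgeR adjusted p = 0.243; DESeq2 adjusted p = 0.0440). Without *ControlΔEC* replicate 1 the log2 fold change was -0.87 and no member was lower at an unadjusted p under 0.05. The mural cell markers, also lower in *Wt1KOΔEC*, summed to 549, 432 and 575 CPM in *ControlΔEC* and to 343, 282 and 283 CPM in *Wt1KOΔEC*. Within *ControlΔEC* the mural sum was highest in replicate 3, where *Fzd1* was lowest. The macrophage markers, lower as well, summed to 272, 551 and 182 CPM and to 162, 167 and 111 CPM. The part of these lists in the *Fzd1* result was not tested.

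**Figure D3:**
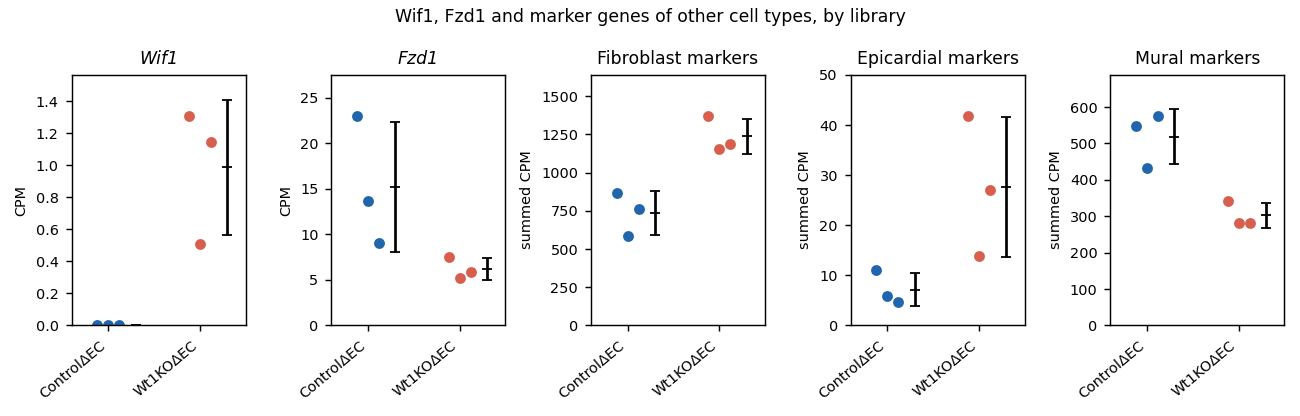
*Wif1* and *Fzd1* in CPM, and the summed CPM of fibroblast, epicardial and mural cell markers, with 1 point per library and black bars for the mean ± SD (n = 3 per genotype). *Wif1* is at 0 in all *ControlΔEC* libraries, *Fzd1* and the mural markers are lower and the other marker sums higher in *Wt1KOΔEC*, with no overlap in any panel. The endocardial sums, higher in *Wt1KOΔEC*, and the macrophage sums, lower there, did not overlap either and are not drawn.

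No other Frizzled receptor reached an unadjusted p under 0.05. *Fzd4* was at 218, 187 and 239.5 CPM in *ControlΔEC* and at 213, 238 and 217 CPM in *Wt1KOΔEC*, which overlapped fully (fold 1.04, 95% interval 0.815 to 1.32). *Fzd6*, known for its part in planar cell polarity, was at 50.2, 39.9 and 39.5 CPM in *ControlΔEC* and at 44.1, 42.4 and 36.3 CPM in *Wt1KOΔEC* (fold 0.947, interval 0.704 to 1.27). For these 2 receptors and for *Ctnnb1* the interval left out a change of 1.5-fold in either direction, and for *Fzd3*, *Lrp6* and *Apc* it left out a 2-fold change. *Fzd7* was at 10.3, 7.17 and 7.001 CPM in *ControlΔEC* and at 5.81, 4.74 and 5.81 CPM in *Wt1KOΔEC*; the genotypes did not overlap, but the difference of -0.58 ± 0.38 (log2) had an adjusted p of 0.592. *Fzd5*, needed for vessels of the placenta, was at 0.514, 0.790 and 1.39 CPM in *ControlΔEC* and at 1.15, 2.41 and 4.03 CPM in *Wt1KOΔEC*, where the lowest *Wt1KOΔEC* value lay inside the *ControlΔEC* range. *Fzd2* had 0 counts in *ControlΔEC* replicates 1 and 2, and *Fzd9* had 0 in *ControlΔEC* replicate 1 and *Wt1KOΔEC* replicate 3, and both overlapped between the genotypes.

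*Fzd4* supplied most Frizzled transcript in every library. Its share of the family's summed CPM per kb was 67.2%, 70.0% and 76.6% in *ControlΔEC* and 74.4%, 76.7% and 76.9% in *Wt1KOΔEC*. The share of *Fzd1* was 11.6%, 8.35% and 4.70% in *ControlΔEC* and 4.28%, 2.75% and 3.36% in *Wt1KOΔEC*, without overlap, though *ControlΔEC* replicate 3 and *Wt1KOΔEC* replicate 1 nearly met. *Fzd6* held 12.6% to 15.47% of the family and the genotypes overlapped. The whole family summed to 295 ± 31.9 CPM in *ControlΔEC* and 292 ± 14.3 CPM in *Wt1KOΔEC*.

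**Figure D4:**
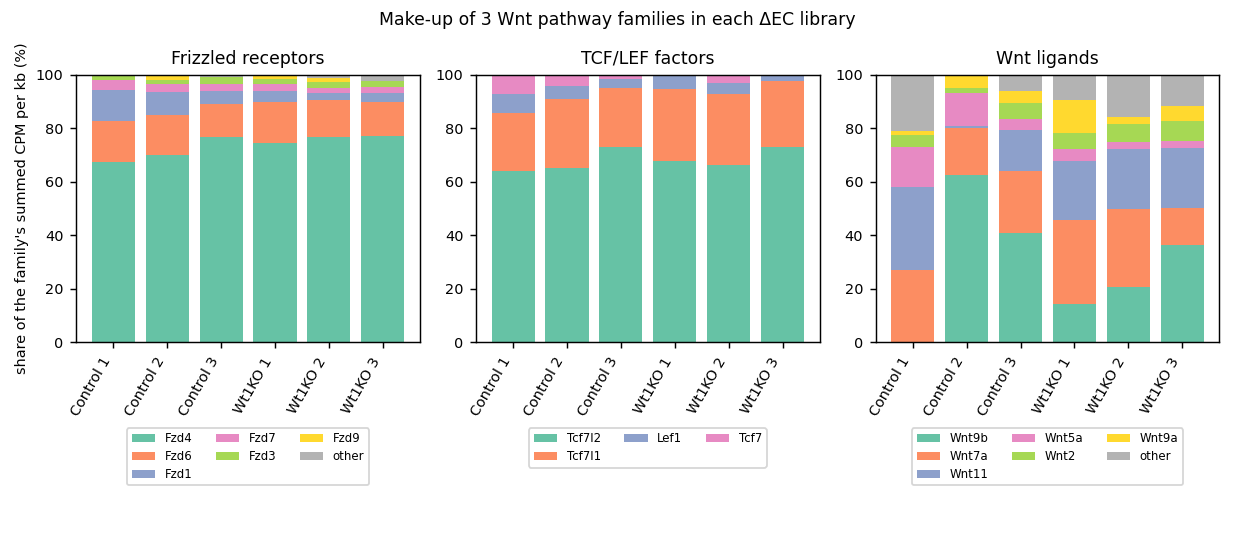
Share (%) of each gene in the summed CPM per kb of the Frizzled receptors, the TCF/LEF factors and the Wnt ligands, with 1 bar per library. *Fzd4* (67.2% to 76.9%) and *Tcf7l2* (64.0% to 73.1%) lead their families in every library, while the leading ligand changes from library to library.

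The LRP co-receptors stood at 1.93 ± 1.32 (*Lrp5*) and 1.61 ± 0.0319 CPM per kb (*Lrp6*) in *ControlΔEC*. *Lrp6* was at 24.5, 24.7 and 25.4 CPM in *ControlΔEC* and at 16.5, 20.6 and 22.5 CPM in *Wt1KOΔEC* (log2 fold change -0.33 ± 0.22, adjusted p = 0.609). All *Wt1KOΔEC* libraries were below all *ControlΔEC* libraries, by a margin that the fit did not separate from the spread. *Lrp5* was at 11.9, 34.0 and 11.1 CPM in *ControlΔEC* and at 17.4, 14.3 and 15.0 CPM in *Wt1KOΔEC*. Its high *ControlΔEC* value came from replicate 2 alone, and without that library the log2 difference turned from -0.29 to 0.44.

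The ligands were low and patchy. Of the 19, 9 were tested, 0 passed any threshold by edgeR (smallest adjusted p = 0.478), and the fitted difference was above 0 for 8 of them. Those 8 log2 fold changes ran from 0.031 (*Wnt9b*) to 1.42 (*Wnt4*). Over all genes tested the median log2 fold change was -0.027, and the share above 0 was not counted. The fits of *Wnt4*, *Wnt5b*, *Wnt9b* and *Wnt16* rest in part on libraries with 0 counts. *Wnt2*, known from the forming lung and heart, was at 1.94, 0.770 and 2.36 CPM in *ControlΔEC* and at 3.35, 4.74 and 4.11 CPM in *Wt1KOΔEC*, with no overlap (log2 fold change 1.27 ± 0.67, adjusted p = 0.478; DESeq2 unadjusted p = 0.0354, adjusted p = 0.241). *Wnt7a* was at 3.02, 1.84 and 2.50 CPM in *ControlΔEC* and at 4.58, 5.36 and 2.02 CPM in *Wt1KOΔEC*, which overlapped through *Wt1KOΔEC* replicate 3. *Wnt11* and *Wnt5a*, ligands best known for signalling without β-catenin, had fitted differences of opposite sign. *Wnt11* was at 5.36, 0.101 and 2.56 CPM in *ControlΔEC* and at 4.91, 6.43 and 5.02 CPM in *Wt1KOΔEC*, and *Wnt5a* at 4.13, 3.201 and 1.14 CPM and at 1.59, 1.21 and 0.910 CPM. Both overlapped between the genotypes, with adjusted p-values of 0.758 and 0.613.

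*Wnt9b* shows how uneven these ligands were between libraries of 1 genotype. It had 0 counts in *ControlΔEC* replicate 1 but 441 and 176 in replicates 2 and 3, so that it supplied 0%, 62.3% and 40.8% of the ligand family's CPM per kb there, and it had 113, 187 and 183 counts in *Wt1KOΔEC*. Along with *Wnt4*, *Wnt5b*, *Wnt16*, *Fzd9* and *Tcf7* it was 1 of 6 members with 0 counts in 1 library and at least 30 in another of the same genotype, which is 17.6% of the members tested, against 11% of all genes tested. Summed over the family, the ligands nevertheless gave 18.3, 15.46 and 16.2 CPM in *ControlΔEC* and 21.6, 27.9 and 22.8 CPM in *Wt1KOΔEC*. The sums did not overlap with TMM, RLE or upper-quartile scaling or with library size only, which gave 17.1 to 18.3 CPM and 19.8 to 26.9 CPM, and they did not overlap per kb (3.17 to 3.42 and 4.42 to 5.62). These scalings draw on the same 6 libraries, and the sum was not recomputed with a library left out. Of all single genes tested, 10.4% were higher in *Wt1KOΔEC* without overlap. No test was made of this sum, and its leading ligand differed between libraries. *Rspo3*, an agonist that keeps Frizzled receptors on the cell surface, was at 1.07, 0.101 and 1.52 CPM in *ControlΔEC* and at 0.870, 2.58 and 2.61 CPM in *Wt1KOΔEC*.

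Inside the cell, *Ctnnb1* (chromosome 9, 120757422 to 120789579) overlapped fully between the genotypes. Its level was 909.6, 820.4 and 801 CPM in *ControlΔEC* and 792, 945 and 762 CPM in *Wt1KOΔEC*, a fold of 0.987 (95% interval 0.786 to 1.24). *Apc*, the scaffold of the destruction complex, was at 41.4, 52.8 and 53.1 CPM in *ControlΔEC* and at 35.3, 47.2 and 39.9 CPM in *Wt1KOΔEC* (log2 fold change -0.27 ± 0.20, adjusted p = 0.645). *Axin1* overlapped as well, at 4.68 to 8.53 CPM and 4.63 to 6.77 CPM. These are transcript levels, and β-catenin is controlled mainly through the stability of the protein, which was not measured.

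The transcript of *Axin2*, the member most often read as a target of β-catenin, was low. It was at 0.737, 1.36 and 1.32 CPM in *ControlΔEC* and at 1.15, 0.814 and 1.82 CPM in *Wt1KOΔEC*, from 29 to 67 counts per library. The log2 fold change of 0.15 had a 95% interval of -2.00 to 2.29, so that large changes in either direction lay inside it and a difference was not detectable with 3 libraries per genotype. *Lef1*, both an effector and a target, was at 2.21, 2.03 and 1.84 CPM in *ControlΔEC* and at 3.15, 2.92 and 1.23 CPM in *Wt1KOΔEC*, with *Wt1KOΔEC* replicate 3 below every other library.

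Of the TCF/LEF factors, *Tcf7l2* was the main transcript, with 67.4% ± 5.01 of the family's CPM per kb in *ControlΔEC* and 68.8% ± 3.51 in *Wt1KOΔEC*. It was at 19.9, 25.8 and 41.1 CPM in *ControlΔEC* and at 37.1, 46.6 and 37.9 CPM in *Wt1KOΔEC*, where *ControlΔEC* replicate 3 lay among the *Wt1KOΔEC* libraries (log2 fold change 0.49 ± 0.28, adjusted p = 0.518). *Tcf7l1*, the family member best known as a repressor, was at 3.95, 5.98 and 7.21 CPM in *ControlΔEC* and at 8.596, 10.9 and 7.55 CPM in *Wt1KOΔEC* (0.66 ± 0.39, adjusted p = 0.533). The genotypes did not overlap, with a narrow gap between *ControlΔEC* replicate 3 and *Wt1KOΔEC* replicate 3. *Tcf7* was found in all *ControlΔEC* libraries, with 44, 36 and 12 counts, and in *Wt1KOΔEC* in replicate 2 alone, with 36 counts.

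The feedback inhibitors limit the pathway at several steps. *Znrf3*, a ligase that removes Frizzled receptors from the surface and is opposed by R-spondins, was at 3.40, 5.49 and 5.96 CPM in *ControlΔEC* and at 7.57, 6.49 and 8.43 CPM in *Wt1KOΔEC*, without overlap (log2 fold change 0.60 ± 0.41, adjusted p = 0.618). *Nkd1*, which binds Dishevelled, was at 4.65, 9.503 and 5.51 CPM in *ControlΔEC* and at 5.50, 8.23 and 13.3 CPM in *Wt1KOΔEC*, which overlapped. *Apcdd1*, a membrane protein that binds Wnt ligands, spread from 0.263 to 4.56 CPM in *ControlΔEC* and from 0.277 to 2.64 CPM in *Wt1KOΔEC*. The related ligase gene *Rnf43* was at or near 0 in every library. The summed CPM of the 4 genes did not overlap between the genotypes (12.6 to 15.3 and 15.497 to 22.2), but overlapped per kb and with scaling by library size only.

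The pathway outside the members was followed with 8 lists holding 73 genes, of which 66 were tested. Of these, 3 were higher and 3 lower at an unadjusted p under 0.05 (9.09%, against 13.1% of all genes tested), with a median log2 fold change of -0.049, and 1 was a DEG. That gene was *Plvap*, a component of endothelial diaphragms that β-catenin signalling keeps low in brain ECs, at 68.1 CPM in *ControlΔEC* and 338 CPM in *Wt1KOΔEC* on average (2.31 ± 0.18, adjusted p = 0.00319). The other 6 genes of its list, genes that follow Wnt signalling in brain ECs, included *Abcb1a*, which encodes an efflux pump, at 14.3 CPM against 5.91 CPM (-1.28 ± 0.49, adjusted p = 0.321), while *Cldn5*, *Slc2a1*, *Sox17*, *Mfsd2a* and *Fgfbp1* did not reach an unadjusted p of 0.05. Over the 7 genes of that list the median log2 fold change was 0.18. The genotypes did not overlap for 2 of them, both higher, and for 0 in the lower direction, so that *Abcb1a* overlapped. Over all genes tested these shares were 10.4% and 8.95%. None of the 6 tested target genes outside the members reached an unadjusted p of 0.05 (smallest for *Myc*, adjusted p = 0.408).

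At the membrane, *Ror1*, a receptor for WNT5A, had 0, 0 and 6 counts in *ControlΔEC* and 184, 34 and 39 counts in *Wt1KOΔEC* (edgeR adjusted p = 0.288; DESeq2 adjusted p = 0.0191), and it too passed the filter through *Wt1KOΔEC* alone. All *Wt1KOΔEC* libraries lay above all *ControlΔEC* libraries, and like *Wif1* it was highest in *Wt1KOΔEC* replicate 1, where the fibroblast and epicardial marker sums were highest; their part was not tested. The other 7 co-receptors and alternative receptors tested, among them the FZD4 partner *Tspan12* and the WNT7 partners *Adgra2* and *Reck*, did not reach an unadjusted p of 0.05. Neither did any of 7 genes of ligand secretion and agonism, 4 secreted inhibitors and 10 genes of planar cell polarity that were tested. The smallest p-values in these lists were those of *Notum*, an enzyme that inactivates Wnt ligands (adjusted p = 0.436), *Dkk3* (adjusted p = 0.533) and the polarity cadherin *Celsr2*, at 16.8 CPM on average in *ControlΔEC* and 10.2 CPM in *Wt1KOΔEC* (adjusted p = 0.386). Among 14 genes of the Dishevelled and kinase list, *Csnk1d*, a casein kinase, was at 299, 263 and 199 CPM in *ControlΔEC* and at 182, 151 and 164 CPM in *Wt1KOΔEC* (-0.61 ± 0.18; edgeR adjusted p = 0.235; DESeq2 adjusted p = 0.0326). Among 12 nuclear cofactors, *Tle3*, a co-repressor, differed by 0.48 ± 0.21 (adjusted p = 0.378) and *Chd8*, a chromatin remodeller, by -0.71 ± 0.30 (adjusted p = 0.362).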

How the data were processed

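The deposited values were RSEM expected counts per gene, which the authors obtained from STAR alignments and gave as whole numbers without normalization; the submitters' processing notes name STAR 2.7.8a and RSEM 1.3.0. The paper's methods name GRCm39 with GENCODE vM27, whereas the processing notes name GRCm38. The libraries were amplified without molecular identifiers, so that floors cover counting error only.

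The 16296 genes that reached 10 counts in 2 or more libraries were compared with edgeR 4.0.16 in R 4.3.3 (TMM, quasi-likelihood test, Benjamini-Hochberg adjustment over all genes tested; 95% intervals from its t quantiles). DESeq2 1.42.0 and limma 3.58.1 (voom) were alternatives, besides other scalings and filters, the replicate number as a block and each library left out in turn. DESeq2 was run on all genes of the table, without the count filter that edgeR and limma-voom used. Steps were tested on simulated data. Exonic lengths, transcript starts and promoter sequences came from GENCODE vM39 and the GRCm39 genome. Members and lists were chosen with earlier results of these data known. Values per library were set to be given for members that were DEGs or had an unadjusted p under 0.05, for the 8 with the highest CPM per kb in *ControlΔEC* and for those detected in 1 genotype alone; list genes are named at an unadjusted p under 0.05, or by the smallest p. The per-library values of other members, and other list genes, were added by role after their values were seen. P-values set the genotype difference against the spread between these 3 libraries per genotype, which edgeR estimates with information shared across genes.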

Additional observations from a re-analysis of the deposited data

How the results depend on the processing

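Members called as DEGs numbered 0 by edgeR in all alternatives run within it and with limma-voom, also with each library left out (0 to 0), and 2 with DESeq2. Members higher at an unadjusted p under 0.05 numbered 1, against 2 with DESeq2, 4 with limma-voom, 2 with no filter on low counts (42 members tested) and 2 with at least 10 counts in every library (22 members tested), and 1 to 3 with a library left out (3 without *ControlΔEC* replicate 3). Those lower numbered 1, and 0 (without *ControlΔEC* replicate 1) to 2 (without *Wt1KOΔEC* replicate 2) with a library left out. Members whose genotypes did not overlap numbered 7, and 9 to 13 with a library left out, where fewer libraries make overlap rarer by construction. The median log2 fold change of 0.23 was 0.37 with limma-voom, 0.12 with library size only, 0.45 with no filter, 0.031 with at least 10 counts in every library and 0.43 with the replicate block, and 0.0075 (without *Wt1KOΔEC* replicate 2) to 0.43 (without *Wt1KOΔEC* replicate 1) with a library left out. Some differences changed sign, none of them past a threshold: *Fzd4* to -0.095 with library size only and -0.037 to 0.14 with a library left out, *Ctnnb1* to 0.0047 with upper-quartile normalization and -0.12 to 0.042 with a library left out, *Fzd6* -0.14 to 0.043, *Sfrp2*, at 0.44, from -0.22 (without *Wt1KOΔEC* replicate 2) to 0.84, and *Lrp5*, at -0.29, from -0.56 to 0.44 (without *ControlΔEC* replicate 2). The cause was not tested. Same-numbered libraries of the genotypes deviated together weakly (r = 0.0566, 0.00448 and 0.0201 across genes), so that the numbers were not taken as pairs, and the block moved no count of called members by more than 1.5 times. The fit with at least 10 counts in every library could give no value for *Wif1* and *Ror1*. Depth limits what can be said of members at 0, which allow up to 0.119 CPM in the shallowest library.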
